A study of Rattus norvegicus with 6 samples.

Results

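Interferon-induced antiviral effectors are among the genes that cells switch on after sensing an interferon, and many of their products act against viruses. 10 such genes, Mx1, Mx2, Oas1a, Ifit2, Ifit3, Bst2, Gbp2, Ifi27l2b, Rsad2 and Isg15, were followed in islets of fetal rats. They were taken by symbol from the 17321 genes of the count files, all 10 were present, and all 10 were among the 12276 genes that passed the filter on low counts. The symbols were chosen because these genes were lower in the high glucose libraries of these same data, so their high glucose against control values are given below as a description, and no test of that contrast is used to support them.

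The high glucose group was 3 islet preparations from Sprague Dawley fetuses whose uterine horn was infused with glucose, and the control group was 3 preparations from the other horn of the same dams. Glucose ran at 4 mg per min for 48 h from gestational day 20 to day 22, the islets of 2 fetal pancreata were pooled per library, and all preparations of both groups recovered for 24 h in culture at 5 mM glucose ahead of RNA isolation. The groups therefore share the pregnancy, the pooling and the culture, and the horn side and the treatment cannot be told apart. The horn letter in the count files is the opposite of that in the sample titles for 6 of 6 libraries. Groups here follow the treatment labels, and every direction would turn round if the file naming were the right one.

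Interferons of type I act on a receptor on the cell surface whose kinases, Jak1 and Tyk2, activate transcription factors such as Stat2, which acts with Irf9 at interferon-stimulated response elements at target genes. Interferon gamma acts through its own receptor and through gamma-activated sites at its target genes. Pancreatic islets are known to switch on these genes during viral infection and in the early course of type 1 diabetes, and leukocytes within the tissue express many of them as well.

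Each library held between 18077841 and 30993532 assigned counts, with 13026 to 13976 genes having at least 1 count. Summed beta cell markers ranged from 4917 to 18488 CPM (read counts scaled to a common library size with TMM factors) in high glucose libraries and from 11130 to 22745 CPM in control libraries. Mesenchyme markers summed to 20917 to 29839 CPM in high glucose and 15227 to 35065 CPM in control, so the preparations held other cells beside endocrine cells. CPM is not corrected for gene length, so these sums do not rank the cell types against each other. The 10 antiviral genes together took 0.0374%, 0.0304% and 0.0171% of the counts in the high glucose libraries of pairs 1, 2 and 3, against 0.122%, 0.123% and 0.0256% in the control libraries.

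The sequence in front of 5 of the 6 genes with a promoter at hand holds the core of the element through which interferon signalling is known to act. The RefSeq promoter table (GRCr8 assembly) held 6 of the 10 genes, Mx1, Oas1a, Ifit3, Bst2, Gbp2 and Rsad2. The table had no entry for Mx2, Ifit2, Ifi27l2b and Isg15. In the 300-base window, 250 bases before the annotated start and 50 after it, the core of the response element (GAAA, any 2 bases, then GAAA, read on both strands) occurred in 5 of the 6 promoters, against 3.92% of all 33469 promoters in the table. The following 5 promoters hold it, printed over the 250 bases before the start, 5′ to 3′ on the strand of the gene, with the bases of the core in capitals.
Oas1a (chr12:41330216-41330465, plus strand): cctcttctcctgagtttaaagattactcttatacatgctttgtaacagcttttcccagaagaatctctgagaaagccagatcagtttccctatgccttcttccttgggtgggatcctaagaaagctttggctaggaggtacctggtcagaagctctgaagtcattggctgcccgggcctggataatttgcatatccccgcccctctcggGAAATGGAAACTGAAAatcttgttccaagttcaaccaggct
Bst2 (chr16:18254968-18255217, minus strand): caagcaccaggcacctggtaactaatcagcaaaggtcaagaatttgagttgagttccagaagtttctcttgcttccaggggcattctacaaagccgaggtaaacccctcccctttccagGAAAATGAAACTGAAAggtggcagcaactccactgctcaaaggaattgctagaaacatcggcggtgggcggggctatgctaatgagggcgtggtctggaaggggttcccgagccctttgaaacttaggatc
Ifit3 (chr1:241527076-241527325, plus strand): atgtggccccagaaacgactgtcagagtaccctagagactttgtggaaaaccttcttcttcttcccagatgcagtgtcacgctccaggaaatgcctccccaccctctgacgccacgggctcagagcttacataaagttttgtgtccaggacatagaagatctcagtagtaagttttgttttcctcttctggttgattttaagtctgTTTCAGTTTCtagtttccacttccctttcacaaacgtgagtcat
Gbp2 (chr2:234005477-234005726, plus strand): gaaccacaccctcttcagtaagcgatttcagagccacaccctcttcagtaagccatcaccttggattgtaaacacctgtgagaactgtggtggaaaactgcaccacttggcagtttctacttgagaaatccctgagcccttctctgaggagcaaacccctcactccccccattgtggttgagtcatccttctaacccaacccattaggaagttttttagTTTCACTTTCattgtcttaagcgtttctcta
Rsad2 (chr6:48788121-48788370, minus strand): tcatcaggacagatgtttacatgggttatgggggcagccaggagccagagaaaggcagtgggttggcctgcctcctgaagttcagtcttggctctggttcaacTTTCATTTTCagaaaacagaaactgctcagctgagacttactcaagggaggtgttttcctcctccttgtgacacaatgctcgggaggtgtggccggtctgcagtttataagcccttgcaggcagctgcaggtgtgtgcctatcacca

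In Oas1a the element occurs as a pair of overlapping copies that begin 41 and 35 bases before the start. Bst2 holds a like pair of which the outer copy begins 131 bases before its start. In Ifit3, Gbp2 and Rsad2 the match lies on the opposite strand, 44, 31 and 147 bases before the start. The core followed by C occurred in 4 of the 6 promoters, against 0.881% of all promoters, with Rsad2 being the one that lost its match. The gamma-activated site, TTCNNNGAA, occurred in Oas1a and Bst2, 2 of the 6, against 8.87% of all promoters. In Bst2 that site overlaps the response element in part, and the capitals mark the response element only. The Mx1 window held none of these letters.

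All 10 antiviral genes were lower in the high glucose library than in the control library of the same dam in all 3 pairs, a pattern shown by 11.3% of all genes tested. On raw library totals, without the TMM factors, 9 of 10 were lower in all 3 pairs, against 10.6% of all genes, the exception being Rsad2 in pair 3. That scaling moved the median of all genes in pair 3 to 0.11. The fitted log2 fold changes ranged from -2.39 for Mx1 to -1.01 for Bst2, with a median of -1.75, beside a median of 0.00 over all genes. Because the genes were chosen on this contrast, these counts describe the choice and are not independent evidence. With edgeR's quasi-likelihood test in the paired fit, 0 of the 10 passed a Benjamini-Hochberg adjusted p of 0.05, against 2 of all genes, 0.0163%. Those 2 were Np4 (log2 fold change -9.08, adjusted p = 0.000246) and Car1 (-7.32, adjusted p = 0.000793), both lower. They belong to the neutrophil and erythroid marker lists used below. All 10 antiviral genes had an unadjusted p below 0.05 in that fit, as did 592 of the 12276 genes tested, 387 of them lower. DESeq2 in the same paired design called 10 of 10 lower, against 85 genes called lower among all, 0.692%. These test counts rest on the contrast used for the choice, so they too describe the choice and are not support for it.

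**Figure D1:**
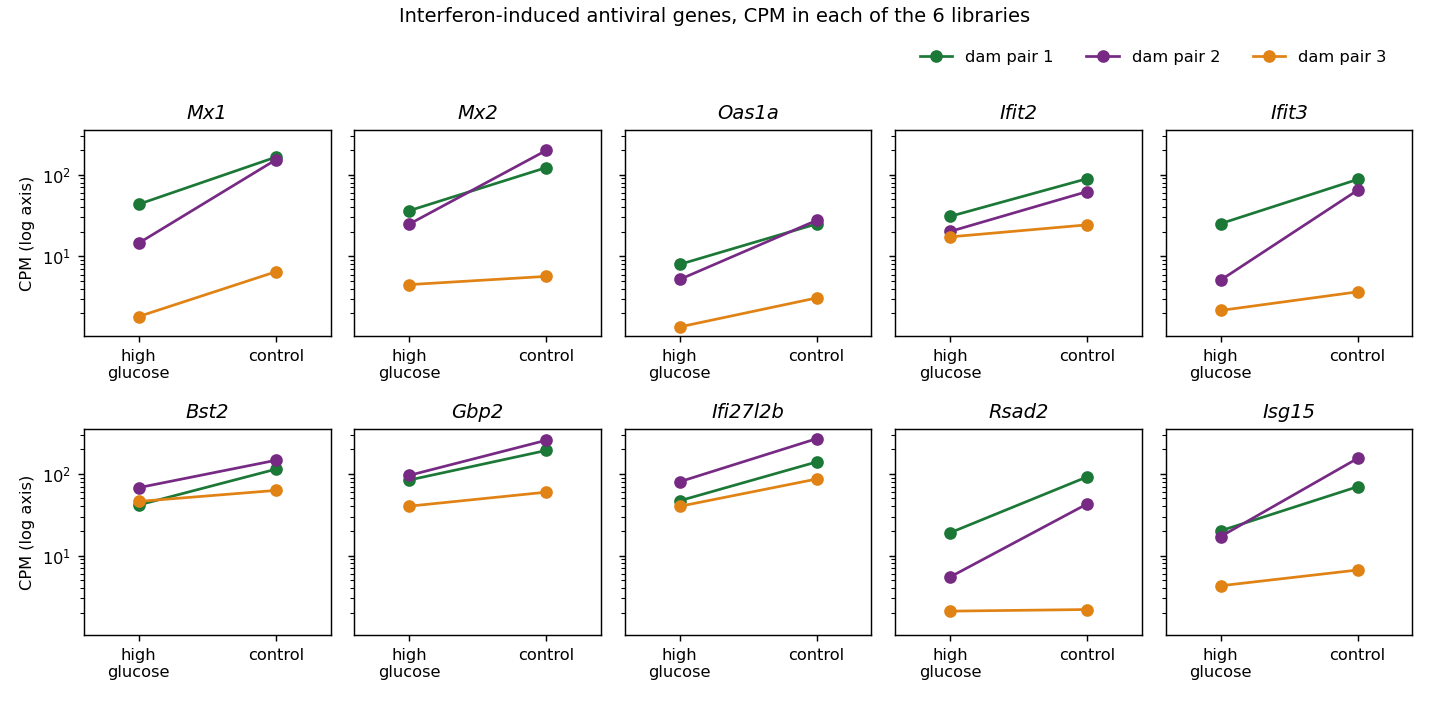
CPM on a log axis for each of the 10 antiviral genes in high glucose and control islets, with points being single libraries and lines joining the libraries of 1 dam. Every line is higher at its control end on this scale (Rsad2 in pair 3 is not on raw library totals), and both libraries of dam pair 3 are the lowest of their group for every gene except Bst2 in high glucose.

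The dynamin-like GTPases come first. Mx1, a GTPase that traps incoming viral nucleocapsids, lies on chromosome 11 (rn6, 37891150 to 37916690, minus strand). It measured 43.5, 14.6 and 1.84 CPM in the high glucose libraries of pairs 1, 2 and 3, against 164, 152 and 6.48 CPM in their controls. Each high glucose library was below its own control, but the groups overlapped, because the control library of pair 3 was below the high glucose libraries of the other pairs. The fitted log2 fold change was -2.39 ± 0.34 (SE, 3 pairs), and the pair differences were -1.91, -3.38 and -1.78.

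Mx2, its paralog 118.8 kb away on chromosome 11 (38035513 to 38059579), encodes a GTPase that in rodents acts in the cytoplasm against viruses such as vesicular stomatitis virus. It measured 36.3, 24.9 and 4.52 CPM in high glucose libraries, against 122, 198 and 5.70 CPM in control libraries. Pairs 1 and 2 differed by -1.75 and -2.99 on the log2 scale, while pair 3 differed by only -0.33, with 145 counts in its high glucose library and 167 in its control. The groups overlapped here too.

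Gbp2, a guanylate-binding protein that coats the membranes of intracellular pathogens, lies on chromosome 2 (248276795 to 248293784). It measured 84.0, 95.8 and 40.2 CPM in high glucose libraries, against 193, 258 and 59.7 CPM in control libraries. Its difference was among the smaller ones, with a fitted log2 fold change of -1.07 ± 0.21 and pair differences of -1.20, -1.43 and -0.57. Control pair 3 fell below 2 of the 3 high glucose libraries.

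The next genes act on viral RNA. Oas1a, an oligoadenylate synthetase that senses double-stranded RNA and activates the nuclease RNase L, lies on chromosome 12 (41200729 to 41211389). It measured 7.99, 5.22 and 1.37 CPM in high glucose libraries, against 25.0, 27.6 and 3.10 CPM in control libraries. The 3 pairs differed by -1.64, -2.39 and -1.14, so this gene, which had the lowest CPM of the 10 in the control libraries of pairs 1 and 2, kept a difference of more than 1 log2 unit in every pair.

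Ifit2 and Ifit3 encode tetratricopeptide proteins that bind viral RNA or the translation machinery, and lie 5.51 kb apart on chromosome 1 (252894663 to 252900727 and 252906234 to 252911375). Ifit2 measured 30.9, 20.2 and 17.3 CPM in high glucose libraries, against 89.5, 62.2 and 24.3 CPM in control libraries. Ifit3 measured 25.2, 5.13 and 2.18 CPM in high glucose libraries, against 87.7, 64.7 and 3.68 CPM in control libraries. The neighbours differed in how far they varied: Ifit2 spanned a 5.16-fold range over the 6 libraries and Ifit3 a 40.2-fold range. The fitted log2 fold changes were -1.22 ± 0.25 for Ifit2 and -2.09 ± 0.65 for Ifit3, and the pair differences of Ifit3 ran from -3.64 in pair 2 to -0.74 in pair 3.

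The remaining genes encode membrane-associated and ubiquitin-like products. Bst2, or tetherin, holds budding virus particles at the cell surface and lies on chromosome 16 (19938784 to 19942353). It measured 41.6, 67.8 and 46.0 CPM in high glucose libraries, against 114, 147 and 62.7 CPM in control libraries. It varied least of the 10, over a 3.53-fold range. It was also the one gene whose largest difference was in pair 1, at -1.45, with -1.11 and -0.45 in pairs 2 and 3.

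Rsad2, or viperin, is a radical SAM enzyme that makes a chain-terminating nucleotide, and lies on chromosome 6 (45655947 to 45669083). It measured 19.0, 5.47 and 2.09 CPM in high glucose libraries, against 91.9, 42.9 and 2.18 CPM in control libraries. Pair 3 hardly differed, at -0.06 on the log2 scale, and its raw counts were 67 in high glucose and 64 in control, so the sign of that pair rests on the TMM factors: on raw library totals the difference was 0.06. The differences of -2.27 and -2.95 in pairs 1 and 2 were much larger.

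Isg15, a ubiquitin-like modifier joined to newly made proteins, lies on chromosome 5 (173624902 to 173626189). It measured 20.1, 17.1 and 4.27 CPM in high glucose libraries, against 69.7, 155 and 6.65 CPM in control libraries. The control library of pair 2 stood highest, and the pair differences were -1.79, -3.17 and -0.63.

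Ifi27l2b, a member of the small hydrophobic Ifi27 family, lies on chromosome 6 (127336305 to 127337791). It measured 46.8, 80.1 and 40.0 CPM in high glucose libraries, against 140.0, 269.7 and 86.5 CPM in control libraries. It was the one antiviral gene of the 10 whose groups did not overlap, a separation in that direction shown by 2.10% of all genes tested. Its pair differences were -1.58, -1.75 and -1.11, and the fitted log2 fold change of -1.48 had the smallest SE of the 10, 0.19.

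**Figure D2:**
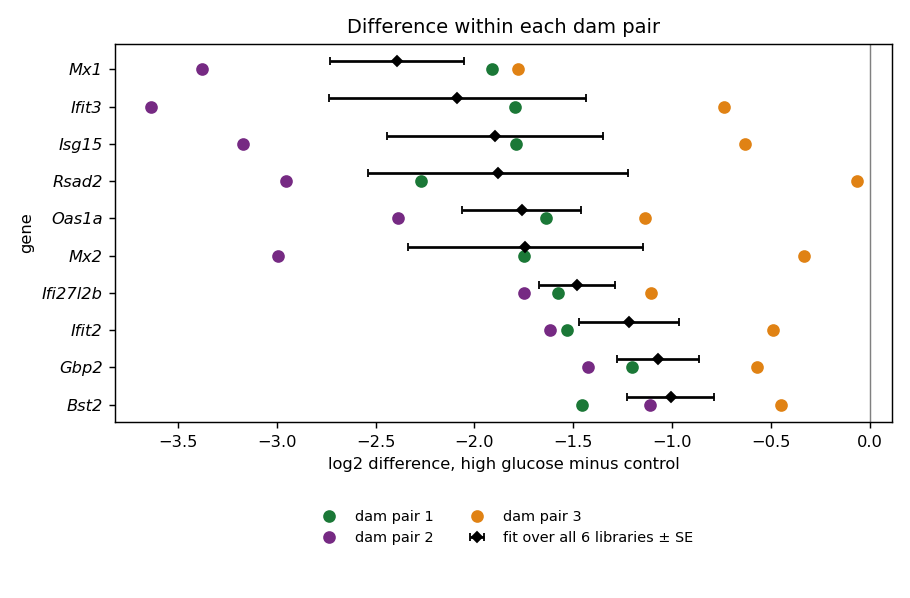
Log2 difference, high glucose minus control, within each dam pair for the 10 antiviral genes, with the fitted fold change and its SE as a diamond and bar, ordered by fitted value. All 30 pair differences lie below 0 on the TMM scale (29 do on raw library totals, the exception being Rsad2 in pair 3), and pair 3 has the smallest difference for every gene, from -1.78 for Mx1 to -0.06 for Rsad2.

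The size of the difference varied between the dam pairs. With a single library per group in each pair, a dependence on the dam cannot be told apart from variation between libraries. The median over the 10 genes was -1.69 in pair 1, -2.67 in pair 2 and -0.60 in pair 3. Summed over the genes, the level was 355, 336 and 160 CPM in high glucose libraries of pairs 1, 2 and 3, against 1098, 1377 and 261 CPM in control libraries.

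Islets of dam 3 had low levels in both horns. Averaged over the horns, the 10 genes were higher in dam 1 than in dam 3 by a median of 2.76 log2 units (0.36 to 4.58), and higher in dam 2 than in dam 3 by a median of 2.58 (0.79 to 3.77). Dams 1 and 2 differed by a median of 0.08 (-0.86 to 1.44), and the median over all genes was between -0.06 and 0.04 in the 3 contrasts. In edgeR's quasi-likelihood test of any difference among the 3 dams, 5 of 10 passed a Benjamini-Hochberg adjusted p of 0.05, against 22.8% of all genes. These were Mx1 (adjusted p = 0.00342), Oas1a (0.00394), Gbp2 (0.00613), Ifi27l2b (0.00959) and Ifit2 (0.0326). DESeq2's likelihood ratio test called 10 of 10, against 33.4% of all genes. This test was added after the data were seen, and it shares its residual spread with the contrast on which the genes were chosen. A dam stands for 1 animal and for anything handled dam by dam, and these cannot be told apart.

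Levels were compared between genes per length, as RPKM, which is CPM per kilobase of gene model. In high glucose islets the mean levels ran from Ifi27l2b at 123.4 ± 47.5 RPKM (SD, n = 3) and Bst2 at 68.6 through Gbp2 (30.6), Isg15 (20.8), Mx2 (8.53), Ifit2 (6.70), Mx1 (5.76), Ifit3 (5.35) and Oas1a (3.47) to Rsad2 at 2.47 RPKM. In control islets the order began in the same way, with Ifi27l2b at 367 ± 209 RPKM (SD, n = 3) and Bst2 at 143, followed by Isg15 (116), Gbp2 (71.1), Mx2 (42.4), Mx1 (31.0), Ifit3 (25.7), Ifit2 (17.2), Oas1a (13.3) and Rsad2 (12.7). Neighbours in the order overlapped in their library ranges for 8 of 9 neighbouring pairs in high glucose, the exception being Bst2 over Gbp2, and for 9 of 9 in control. Within single libraries, the higher gene of a neighbouring pair was the higher one in all 3 libraries for 5 of 9 pairs in high glucose and 4 of 9 in control, Ifi27l2b over Bst2 being among them in both groups.

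The other genes of the interferon pathway were followed by role. As a background for the counts below, 1384 (11.3%) of the 12276 genes tested were lower in all 3 pairs and 1439 were higher. The ligands gave next to no signal: of 6 interferon genes in the files, Ifna1, Ifna2, Ifna4 and Ifnk had 0 counts in all 6 libraries. Ifnb1, encoding interferon beta, had 0 counts in high glucose and 1 in control, and Ifng, encoding interferon gamma, had 1 count in each group. A sum this low was below what these libraries could compare, and none of the 6 was tested.

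Receptor and kinase genes were expressed and differed little. Of 8 tested, 2 were lower and 0 higher in all 3 pairs, with a median log2 fold change of -0.03. Ifnar1, a chain of the type I receptor, averaged 133 ± 36.9 CPM in high glucose and 142 ± 27.4 CPM in control (SD, n = 3 each). Ifngr1 and Ifngr2, the chains of the interferon gamma receptor, had log2 fold changes of -0.33 and -0.25, and neither was called (adjusted p = 1.0 for both, edgeR quasi-likelihood, Benjamini-Hochberg).

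Among 10 transcription factor genes, 5 were lower and 1 was higher in all 3 pairs, with a median of -0.33 and 0 called by edgeR. Irf7, itself interferon-induced and the factor that amplifies type I interferon production, measured 43.5, 26.9 and 11.3 CPM in high glucose libraries, against 155, 167 and 29.5 CPM in control libraries. Its groups overlapped through pair 3, and its fitted log2 fold change of -1.95 ± 0.25 had an adjusted p of 0.0699 with edgeR's quasi-likelihood test. Stat2, a signal transducer of the type I receptor, averaged 54.0 ± 8.0 CPM in high glucose and 83.4 ± 32.6 CPM in control (SD, n = 3 each). Its log2 fold change was -0.55 (edgeR adjusted p = 0.874), while Irf9 was at -0.30.

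Of 11 genes that sense foreign nucleic acid, 5 were lower and 0 higher in all 3 pairs, with a median of -0.16. The RNA sensors Dhx58, Ddx58 and Ifih1, which encode LGP2, RIG-I and MDA5, had log2 fold changes of -1.17, -0.95 and -0.50 and did not pass edgeR's test (adjusted p = 0.412, 0.836 and 1.0). Among 8 inhibitors of the pathway, 3 were lower and 1 was higher in all 3 pairs, with a median of -0.09. Usp18, which removes Isg15 from proteins and blocks the type I receptor, was at -1.62 (edgeR adjusted p = 0.868). Usp18 is also counted among the other interferon-induced genes below. Ptpn6, a tyrosine phosphatase, was at -0.50, and Trex1, an exonuclease that clears cytosolic DNA, was at -0.47.

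The other interferon-induced genes were 42 tested of 55 listed, and 24 of them were lower and 0 higher in all 3 pairs, against the 11.3% of all genes that were lower. Their median log2 fold change was -0.49, and edgeR called 0, with 16 lower at an unadjusted p below 0.05. Cmpk2, a mitochondrial nucleotide kinase gene 14.9 kb from Rsad2, averaged 8.40 ± 3.21 CPM in high glucose and 27.1 ± 18.6 CPM in control. Gbp5, a guanylate-binding protein gene 79.9 kb from Gbp2, averaged 8.93 ± 4.98 CPM in high glucose and 33.1 ± 22.5 CPM in control. Ifi47, an immunity-related GTPase gene, averaged 16.8 ± 8.16 CPM in high glucose and 35.9 ± 20.3 CPM in control (SD, n = 3 each). Their fitted log2 fold changes were -1.51, -1.67 and -1.07, with edgeR adjusted p of 0.231, 0.231 and 0.277.

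DESeq2 called 10 of the 78 other pathway genes tested, all lower, against 0.692% of all genes called lower: Oas1b, Oasl, Ifit1, Ifi47, Ifi27, Gbp5, Usp18, Cmpk2, Lgals9 and Irf7. Of the 42 other interferon-induced genes, 24 also differed among dams by edgeR's test, against 22.8% of all genes, while 1 of 8 receptor and kinase genes and 0 of 8 inhibitor genes did. These lists were compiled with earlier results of the same data known.

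**Figure D3:**
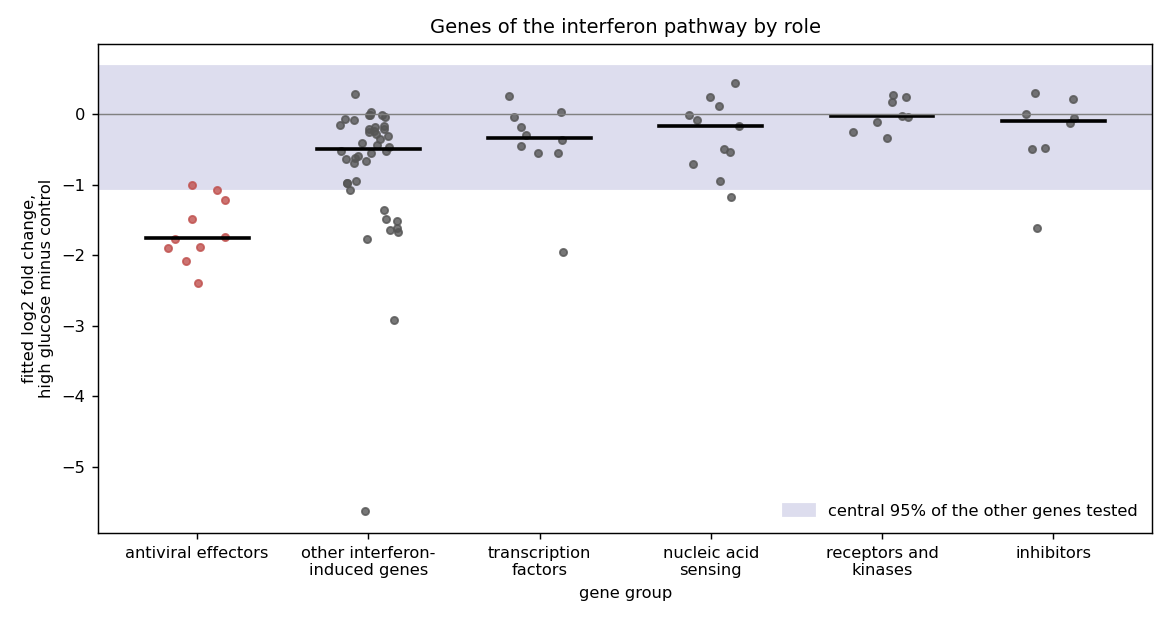
Fitted log2 fold change, high glucose minus control, of each tested gene of the interferon pathway by role, with bars at the medians and shading for the central 95% of the other genes tested (-1.06 to 0.68). The antiviral effectors, which were chosen on this contrast, have a median of -1.75, and the receptor and kinase genes a median of -0.03.

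Several of the 10 genes have close paralogs, so their counts carry some uncertainty. Mx1 and Mx2, Oas1a and Oas1b, Ifit2 and Ifit3, and Ifi27l2b and Ifi27 share sequence, and reads of low mapping quality were not counted. How many reads of each library were lost in that way is not known from the counts, and a shift between paralogs cannot be read from them.

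The genes most like the 10 were sought by the correlation of each gene's log2 CPM with the mean of the 10, after centring within dams, over the 6 libraries. The closest non-members were Hba-a1 (an alpha globin gene, r = 0.9993), Abi3 (0.9993), Oas1b (0.9989), Flt3lg (0.9988) and Pard6g (0.9986), followed by Ctdspl2 (0.9985), Shpk (0.9976), Gbp5 (0.9975), Zfp3 (0.9970) and Ppm1f (0.9964). Only 3 within-dam differences stand behind each value, so r near 1 arises easily and is a description of shape. Size was not part of it: Ctdspl2 differed by -0.16 on the log2 scale and Hba-a1 by -1.44.

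Markers of other cell types also differed between the horns. Beside the counts of genes below, 11.3% of all genes tested were lower in all 3 pairs. Summed general leukocyte markers were 469, 373 and 247 CPM in the high glucose libraries of pairs 1, 2 and 3, against 690, 457 and 542 CPM in control libraries, and 7 of the 9 genes were lower in all 3 pairs. Summed macrophage markers were 852, 656 and 445 CPM in high glucose, against 1048, 747 and 931 CPM in control, with 5 of 10 genes lower in all 3 pairs. Both lists differed least in pair 2 (-0.29 and -0.19 on the log2 scale) and most in pair 3 (-1.13 and -1.07). The summed antiviral genes differed by -1.63, -2.03 and -0.71 in pairs 1, 2 and 3.

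Neutrophil markers were 2.67, 5.66 and 1.43 CPM in high glucose, against 217, 6.43 and 36 CPM in control, and 3 of 5 tested genes were lower in all 3 pairs. Ltf was at 0 in all 6 libraries. Erythroid markers were 145, 599 and 84.0 CPM in high glucose, against 1526, 1418 and 386 CPM in control, and 6 of 6 tested genes were lower in all 3 pairs. B cell markers were under 1 CPM in every high glucose library and 0.921 to 13.9 CPM in control, with Pax5 at 0 in high glucose, and the 1 gene tested was not lower in all 3 pairs. The summed level of each of these 3 lists was lower in high glucose in every pair, though not that of each gene. Summed T and NK cell markers were 7.38 to 11.5 CPM in high glucose and 8.78 to 32.7 CPM in control. That sum was lower in each pair, and 3 of 5 tested genes were lower in all 3 pairs.

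Markers of plasmacytoid dendritic cells, a major source of type I interferon, were 83, 40.4 and 77.6 CPM in high glucose, against 99.7, 69.9 and 67.0 CPM in control. The sum was lower in pairs 1 and 2 and higher in pair 3, where Tcf4 alone was higher (51.8 CPM in high glucose and 35.8 CPM in control), and 3 of the 4 genes were lower in all 3 pairs. Beta cell markers differed by 0.73, -0.33 and -2.21 on the log2 scale in pairs 1, 2 and 3. Endothelial markers differed by 0.08, -1.29 and -0.32, with 3 of 8 genes lower and 0 higher in all 3 pairs. Duct markers were higher in every pair, by 1.07, 0.60 and 0.81, with 3 of 6 genes higher and 0 lower in all 3 pairs. Of the 12276 genes tested, 1439 were higher in all 3 pairs. The part of leukocytes or of any other cell type in the lower antiviral genes was not tested. In bulk RNA, fewer cells of a type and less RNA per cell cannot be told apart.

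**Figure D4:**
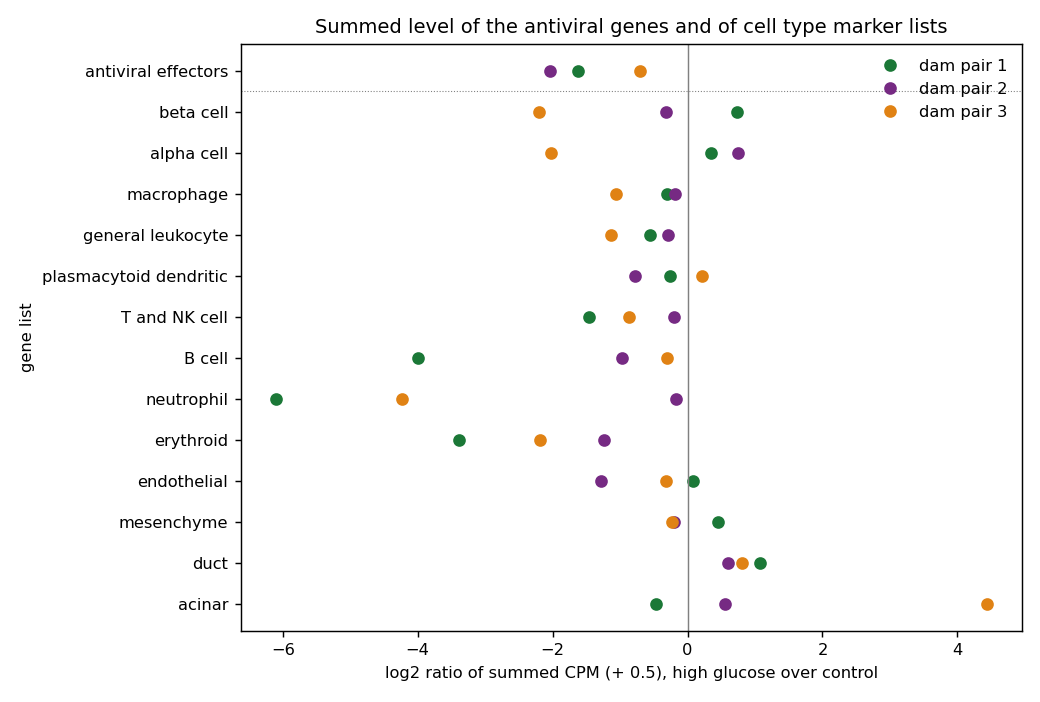
Log2 ratio of summed CPM, high glucose over control, in each dam pair for the 10 antiviral genes and for 13 cell type marker lists, with 0.5 CPM added to each sum. The antiviral genes lie at -1.63, -2.03 and -0.71 for pairs 1, 2 and 3. The macrophage list lies at -0.30, -0.19 and -1.07, and the plasmacytoid dendritic list at -0.26, -0.78 and 0.21.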

How the data were processed

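RNA from 6 islet libraries was sequenced, 3 high glucose and 3 control. The authors' deposited files hold raw read counts, obtained per the file headers from featureCounts 1.5.1 (strand setting 2, minimum mapping quality 10) on rn6, and STAR 2.5 is named in the submitters' processing notes. Those notes name mm10 as well, which no file path or coordinate used here shows.

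Counts were filtered with filterByExpr, TMM-scaled and fitted in edgeR 4.0.16 (R 4.3.3; quasi-likelihood, robust, dam as block) with Benjamini-Hochberg adjustment over 12276 genes at 0.05. The design pairs the horns of a dam, and titles that differ mainly in the horn letter give the 3 pairs: libraries of the same dam deviated from the group means together (correlations of 0.474, 0.621 and 0.413). Libraries of the same group differed by more than sampling noise. CPM and RPKM were computed here on TMM-scaled totals, and log2 CPM used a prior count of 2. P-values rest on 3 pairs.

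The 10 members, the gene lists and the markers were chosen with earlier results of these data known. Named pathway genes are up to 3 per list, those with the lowest p among genes with the same direction in all 3 pairs. 1 of them is not reported here. Ifnar1, Irf9, the ligand genes, and Ifit1 and the Ifitm genes were named outside that rule, after their values were seen. Alternatives were DESeq2 1.42.0, RLE scaling, other filters, an unblocked fit and omission of each pair. Promoters came from RefSeq (GRCr8) and no coordinates were converted between builds.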

Additional observations from a re-analysis of the deposited data

How the results depend on the processing

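The 10 antiviral genes, chosen for being lower, had negative fitted log2 fold changes in 80 of 80 values from the 8 alternatives that refit the data. On raw library totals, an alternative chosen after seeing the data, 9 of 10 were lower in all 3 pairs. Their median, -1.75, was -2.10 without the replicate block for dam pairs and -2.19 to -1.26 on leaving out 1 dam pair. Marker and member levels on unscaled totals moved by less than the spread between libraries. Of all genes, 2 were called; this became 18 with no low-count filter, 5 with a mean count of at least 50, 106 with DESeq2, 4 at an adjusted p below 0.10, 0 without the replicate block (192 at an unadjusted p below 0.05), and 18 to 55 on leaving out 1 pair. Of the other pathway genes, 0 were called; this became 1 (Irf7) with no filter and at 0.10, 10 with DESeq2, and 0 to 10 on leaving out 1 pair: 2 (Ifit1 and Irf7) without pair 1, 0 without pair 2 and 10 without pair 3. The count of antiviral genes differing among dams, 5, was 10 with DESeq2. The promoter count of 5 was 4 with the longer element. The cause of these shifts was not tested. With 3 pairs, and counts as low as 44 for Oas1a in a library, small differences could not be resolved.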

Other observations

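Some interferon-induced genes outside the 10 differed from them in level or in the size of the difference. They are named here after their values were seen. Ifit1, an RNA cap-binding relative 32.7 kb from Ifit3, had raw counts of 3, 66 and 3 in the high glucose libraries of pairs 1, 2 and 3, against 1561, 1150 and 41 in control libraries. Its high glucose counts in pairs 1 and 3 were near 0, which none of the 10 genes showed. It was not called by edgeR's quasi-likelihood test (Benjamini-Hochberg adjusted p = 0.757), and DESeq2 called it lower.

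The Ifitm genes, which encode membrane proteins that block viral entry, were abundant and differed little. Ifitm3 measured 476, 955 and 475 CPM in high glucose libraries, against 557, 1051 and 542 CPM in control libraries. Ifitm1 and Ifitm3 were lower in all 3 pairs, while Ifitm2 was higher in pair 2. The fitted log2 fold changes were -0.28 for Ifitm1, -0.04 for Ifitm2 and -0.18 for Ifitm3, and all 3 differed among dams in edgeR's test (adjusted p = 0.00411, 0.0339 and 0.0186). The response element core occurred in the promoter windows of Ifitm2 and Ifitm3.

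Across the pathway lists, the core occurred in 20 of 34 promoters of other interferon-induced genes, 3 of 6 of ligand genes, 2 of 8 of sensing genes, 1 of 8 of transcription factor genes (Irf7), 1 of 7 of inhibitor genes (Socs1) and 0 of 6 of receptor and kinase genes. A match is a description of letters in the window and not of binding.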
